A study of Mus musculus with 12 samples.

Results

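The effect of losing Lamtor2 on LSK cells was read from 6 of the 12 arrays of the series, 3 of KO LSK and 3 of WT LSK, over the 19937 genes with a probe set that carries exactly 1 gene symbol. LSK cells (Lin- Sca1+ c-Kit+) are the fraction of mouse bone marrow that holds blood stem cells and multipotent progenitors. The KO cells came from C57BL/6J mice with floxed Lamtor2 alleles (Lamtor2f/f) and Mx-Cre. The WT cells came from C57BL/6J mice that the growth protocol also calls Mx-Cre, with Lamtor2 wt/wt in the strain label. Both genotypes were injected i.p. with pIpC, a mimic of viral RNA that induces interferon and through it Mx-Cre, and both were sorted on day 14, per the labels. The strain labels of both genotypes write Mx1-Cre wt/wt, which leaves the state of the Cre transgene in the controls unsettled, and no age is given. The Mx promoter answers to interferon in many cell types, so Cre can act outside LSK cells as well. The labels name 3 mice per genotype without tying arrays to mice, so p-values measure the spread between these arrays. GMP, the granulocyte and macrophage progenitors (sorted as Lin- Sca1- c-Kit+ cells with CD34 and FcγR), were sorted from the same genotypes (3 arrays each) and serve here for the test of whether an effect differed between the populations.

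Lamtor2 is a subunit of Ragulator, the complex that holds the Rag GTPases on the lysosome surface. Rag GTPases recruit mTORC1 when amino acids are plentiful, and active mTORC1 keeps the transcription factors TFEB, TFE3 and MITF out of the nucleus. These factors bind an E-box called the CLEAR motif in front of lysosomal genes. Lamtor2 with its partner Lamtor3 also places MEK1 and ERK on late endosomes. In blood stem and progenitor cells, mTORC1 is known for control of growth, quiescence and lineage output.

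Values are RMA values on the log2 scale, listed in the order of replicates 1, 2 and 3. KO1 to KO3 and WT1 to WT3 stand for the 6 LSK arrays. Lamtor2 read 5.11, 5.40 and 5.77 in KO against 10.39, 10.48 and 10.31 in WT, so it fell by 4.97 or more (SE 0.17, limma adjusted p = 3.65e-09). An exact two-sided permutation test of Lamtor2 gave p = 0.1, the smallest possible with 3 arrays against 3. Since a deleted gene still read up to 5.77, a difference in which 1 group mean lies at or below 5.77 is treated as a lower bound. Such a difference is written as "at least" or "or more", and where both means lie there no size is read from it. The line of 5.77 comes from Lamtor2 alone, and complete deletion in the sorted cells was not tested. Other genes read lower, so the line is a cautious convention and not the floor of every gene. Any 2 LSK arrays correlated between 0.9851 and 0.9948 over genes, and none were identical. The other Ragulator subunits stayed near their WT levels, with differences of 0.05 for Lamtor1, 0.00 for Lamtor3, 0.03 for Lamtor4 and -0.08 for Lamtor5, none past the threshold.

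The sort was checked against markers of LSK and of other cells. For LSK cells 8 genes were used, and Ly6a, which encodes Sca1, was not analysed here. Their mean lay between 8.71 and 8.96 in KO and between 9.14 and 9.23 in WT, and Tek and Hlf were lower. Kit itself read 11.39, 11.19 and 11.44 in KO against 11.26, 11.47 and 11.29 in WT. Markers of other cells moved in part. The mean of 5 GMP or neutrophil progenitor genes was 10.15 to 11.32 in KO and 8.90 to 10.20 in WT, ranges that overlap. Of these 5, Ctsg and Ms4a3 passed the threshold, while Mpo, Elane and Prtn3 did not. For 7 mast cell or basophil genes the mean was 7.10 to 8.09 against 5.72 to 6.32, and Cpa3, Ms4a2 and Mcpt8 passed. That of 14 macrophage genes was 6.07 to 6.76 against 5.59 to 5.78. That of 3 monocyte genes was 7.10 to 7.15 against 6.01 to 6.63, with Ccr2 alone past the threshold. Of the macrophage genes Cd68, C1qb, C1qc and Mertk rose, while Timd4, Marco, Vsig4 and Spic stayed at or below 5.77 in all 6 arrays. The mean of 3 megakaryocyte markers was 7.17 to 7.96 in KO against 8.11 to 8.74 in WT, and that of 4 endothelial markers 5.55 to 5.66 against 6.08 to 6.14, with Cdh5 at or below 5.77 throughout. Only Pf4 and Emcn of these markers passed the threshold. No dendritic, B, T, erythroid or mature neutrophil marker passed the threshold. In sorted bulk cells, fewer cells of a type and less RNA per cell cannot be told apart, and the part of other cells in the results below was not tested.

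In all, 886 genes (4.44% of those tested) passed an adjusted p of 0.05, 496 higher in KO (2.49%) and 390 lower (1.96%). The median difference over all genes was -0.013. The 3 KO arrays lay wholly to 1 side of the 3 WT arrays in 884 of the 886, against 5092 of all genes (25.5%). A difference of at least 2-fold was seen in 128 of the higher and 54 of the lower genes. The number called depended on single arrays. It was 643 without KO1, 563 without KO2, 455 without KO3, 515 without WT1, 468 without WT2 and 548 without WT3, and it was 1672 without GMP KO replicate 1, an array with a weight of 0.19 in limma's array weights. For that reason each gene is followed through the fits that leave out an LSK array. The 366 genes past the threshold in the fit of 12 arrays and in all 6 of those fits are called firm below: 210 higher (1.05%) and 156 lower (0.782%).

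Promoter sequences are shown for genes of 3 groups that the results turn on: lysosomal and metallothionein genes that rose, and interferon-response genes that fell. Each is the RefSeq stretch from 250 bases before to 50 bases after the start of the gene (build GRCm38.p6), 5′ to 3′ on the strand of the gene, with motif matches in capitals. In the first 4 the capitals mark TCACGTG, the core of the CLEAR motif, on either strand. Overlapping matches merge into 1 run.
Gla, chrX:134600956-134601255, minus strand: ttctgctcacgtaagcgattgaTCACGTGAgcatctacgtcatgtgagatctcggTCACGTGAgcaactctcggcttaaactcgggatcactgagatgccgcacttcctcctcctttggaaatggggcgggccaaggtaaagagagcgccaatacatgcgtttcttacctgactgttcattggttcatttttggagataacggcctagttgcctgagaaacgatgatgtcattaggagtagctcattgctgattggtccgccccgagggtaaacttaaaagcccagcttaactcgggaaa
Ctsd, chr7:142387778-142388077, minus strand: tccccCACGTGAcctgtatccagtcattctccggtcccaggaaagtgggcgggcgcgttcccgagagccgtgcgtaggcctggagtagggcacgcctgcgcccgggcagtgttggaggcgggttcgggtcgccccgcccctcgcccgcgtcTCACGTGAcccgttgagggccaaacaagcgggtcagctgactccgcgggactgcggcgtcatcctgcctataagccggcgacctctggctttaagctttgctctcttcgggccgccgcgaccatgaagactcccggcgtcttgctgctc
Lgmn, chr12:102439043-102439342, minus strand, 1 of its 2 starts: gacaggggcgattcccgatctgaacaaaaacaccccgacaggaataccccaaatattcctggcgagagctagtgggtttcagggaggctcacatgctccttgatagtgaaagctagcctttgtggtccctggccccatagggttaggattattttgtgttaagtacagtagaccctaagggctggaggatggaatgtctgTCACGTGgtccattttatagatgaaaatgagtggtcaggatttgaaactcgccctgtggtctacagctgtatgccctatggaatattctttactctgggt
Atp6v0d1, chr8:105566015-105566314, minus strand: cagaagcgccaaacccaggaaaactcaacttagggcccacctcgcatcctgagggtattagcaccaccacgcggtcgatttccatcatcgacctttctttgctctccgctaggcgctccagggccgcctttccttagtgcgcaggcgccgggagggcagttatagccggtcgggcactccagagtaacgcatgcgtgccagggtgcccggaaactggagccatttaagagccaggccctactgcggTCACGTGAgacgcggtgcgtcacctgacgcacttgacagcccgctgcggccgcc
In the next 2 the capitals mark TGCNCNC, a pattern looser than the core of the metal response element, on either strand, so not every marked stretch is such a core.
Mt1, chr8:94178839-94179138, plus strand: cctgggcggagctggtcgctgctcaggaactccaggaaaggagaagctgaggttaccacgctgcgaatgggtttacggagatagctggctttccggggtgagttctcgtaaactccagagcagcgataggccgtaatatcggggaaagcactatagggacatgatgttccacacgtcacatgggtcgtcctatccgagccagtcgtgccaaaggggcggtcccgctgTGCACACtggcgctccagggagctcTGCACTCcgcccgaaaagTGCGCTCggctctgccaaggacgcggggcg
Mt2, chr8:94172368-94172667, plus strand: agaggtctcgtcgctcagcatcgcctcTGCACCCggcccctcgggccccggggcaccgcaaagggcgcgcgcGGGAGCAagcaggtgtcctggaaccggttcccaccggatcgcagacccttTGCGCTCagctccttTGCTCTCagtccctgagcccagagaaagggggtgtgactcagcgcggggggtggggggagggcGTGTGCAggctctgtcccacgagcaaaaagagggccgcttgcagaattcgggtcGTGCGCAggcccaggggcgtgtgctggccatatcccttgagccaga
In the last 2 they mark GAAANNGAA, a short form of the interferon-stimulated response element, on either strand.
Ifit1, chr19:34640639-34640938, plus strand: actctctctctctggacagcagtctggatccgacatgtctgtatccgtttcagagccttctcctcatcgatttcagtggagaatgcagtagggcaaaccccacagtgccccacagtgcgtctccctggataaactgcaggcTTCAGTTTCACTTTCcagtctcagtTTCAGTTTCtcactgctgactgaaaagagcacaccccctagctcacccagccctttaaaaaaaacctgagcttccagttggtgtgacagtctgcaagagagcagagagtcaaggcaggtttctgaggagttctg
Oas3, chr5:120777610-120777909, minus strand: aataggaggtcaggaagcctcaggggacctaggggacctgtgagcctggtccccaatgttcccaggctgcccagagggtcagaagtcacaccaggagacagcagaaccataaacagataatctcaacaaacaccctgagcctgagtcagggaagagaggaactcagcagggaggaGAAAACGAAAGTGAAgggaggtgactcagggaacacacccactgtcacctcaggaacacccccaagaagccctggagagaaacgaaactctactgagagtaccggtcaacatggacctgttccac

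A promoter of this length was at hand for 15613 of the 19937 genes, with a gene counted as a holder if any of its starts held the motif. TCACGTG was held by 5.35% of these genes, by 40 of the 383 higher genes with a promoter (10.4%) and by 9 of the 302 lower ones (2.98%). Among the genes of the 4 lysosomal lists, 21 of 90 held it (23.3%): 9 of the 34 that rose and 12 of the 56 that did not pass. The 9 were Gla, Glb1, Gaa, Ctsa, Ctsd, Lgmn, Lamp1, Atp6v0d1 and Atp6v1a. GAAANNGAA was held by 9.2% of all these genes and by 21 of 40 interferon-response genes (52.5%), of which 7 were among the 11 that fell and 14 among the 29 that did not pass. TGCNCNC is common, with 58.7% of all these genes holding it, and it matched 3 times in the Mt1 promoter and 6 times in that of Mt2. These matches describe the letters in the window and not binding.

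Some genes for lysosomal enzymes, proteases, pump and membrane rose. Of 38 genes measured on a list of hydrolases and activators, 15 rose and 0 fell (10 firm), with a median difference of 0.38. The list also holds Grn, Npc2 and Gpnmb, which do not encode hydrolases and are among the firm rises. Gla, the alpha-galactosidase whose loss causes Fabry disease, read 8.54, 8.88 and 8.79 in KO against 7.12, 7.0 and 7.05 in WT, a rise of 1.68 (SE 0.15, limma adjusted p = 5.25e-05). Galc, which splits galactosylceramide, read 8.03, 8.20 and 8.08 against 7.13, 7.06 and 6.95. Grn, the precursor of granulins, read 11.08, 11.40 and 11.23 against 10.21, 10.21 and 10.13. In all 3 genes the KO arrays lay close together and well clear of WT. Dnase2a, the lysosomal DNase, rose by 1.16 and the serine carboxypeptidase gene Scpep1 by 1.20. Smaller firm rises were those of Ppt1 (0.76), Tpp1 (0.69), Man2b1 (0.52) and the cholesterol carrier Npc2 (0.48). Gpnmb, a glycoprotein of the late endosome and lysosome that is on the same list, had the largest rise of all genes, at least 6.41, from 4.93, 5.21 and 4.86 in WT to 10.72, 12.14 and 11.38 in KO. Psap, Lipa, Asah1, Glb1 and Gaa passed without being firm.

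Of 19 cathepsins, other lysosomal proteases and their inhibitors, 11 rose (8 firm), with a median of 0.70. Lgmn, the asparaginyl endopeptidase legumain, read 8.35, 9.48 and 8.63 in KO against 6.35, 5.92 and 6.25 in WT, a 6.27-fold rise (SE 0.24 on the log2 scale, limma adjusted p = 4.42e-05). Ctss read 9.74, 11.01 and 10.25 against 8.53, 8.25 and 8.41. Ctsb, Ctsl, Ctsd and Ctsz, all broadly expressed cathepsins, rose by 1.44, 1.41, 1.13 and 1.07. KO2 was the highest KO array in all of these, and KO1 the lowest. Cst7, the inhibitor cystatin F, ran the other way, with KO1 highest at 10.71 against 10.22 and 10.27 in KO2 and KO3 (WT 8.87, 8.76 and 8.57). Ctsa rose by 0.68. Ctsc (0.64) lost the call without KO3 or WT3, and Cstb (0.53) lost it in each of the 6 fits. The stefin gene Stfa2 was called with both means at or below 5.77.

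Of 22 vacuolar ATPase subunits and accessory proteins, 9 rose, 2 of them firm, with a median of 0.30. Atp6v0d2, the d subunit of macrophages and osteoclasts, read 6.21, 8.32 and 7.72 against 3.92, 4.66 and 4.42, a rise of at least 3.08 (SE 0.47). The a1 subunit gene Atp6v0a1 rose by 0.77 (8.11, 8.38 and 8.26 against 7.37, 7.69 and 7.38). The accessory gene Atp6ap2 rose by 0.89 and lost the call without WT2. The other 6 rises were smaller, between 0.40 for Atp6v1g1 and 0.59 for Atp6v1c1, and none of them was firm. The count of rising subunits was 3 without KO2, 4 without KO3, 4 without WT1 and 3 without WT2. Of 32 lysosomal membrane genes 6 rose (3 firm). Cd68, the macrophage member of the LAMP family, read 10.04, 11.14 and 10.51 against 8.15, 8.38 and 8.34. Lamp2 (10.25, 10.23 and 10.20 against 9.63, 9.57 and 9.49) and the tetraspanin Cd63 (12.40, 12.30 and 12.22 against 11.75, 11.80 and 11.73) rose by 0.66 and 0.55 with tight replicates. Lamp1, Glmp and Ostm1 passed without being firm. The count of membrane genes was 3 without KO2, WT1 or WT2 and 4 without KO3 or WT3.

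**Figure D1:**
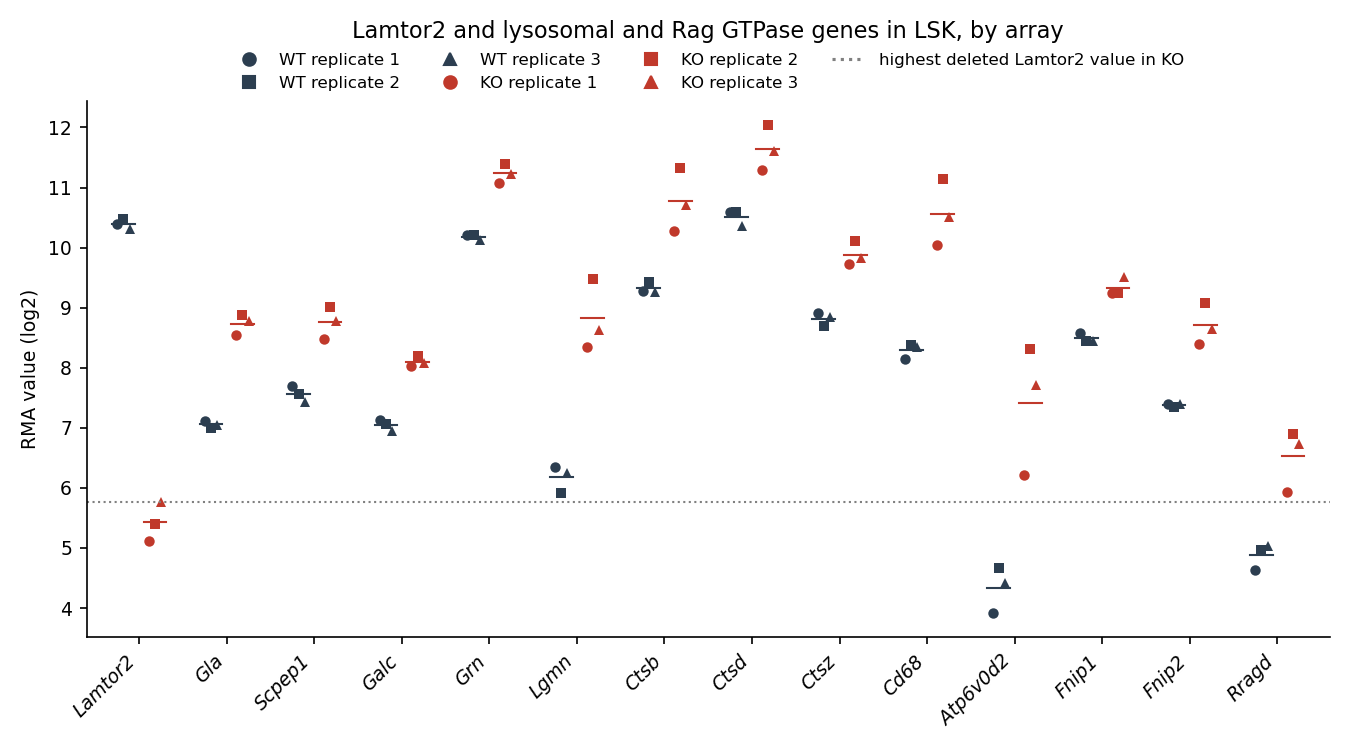
RMA values (log2) of Lamtor2 and 13 genes of the lysosome and of Rag GTPase control in the 3 WT and 3 KO LSK arrays, with bars at the group means and a dotted line at 5.77, the highest value of deleted Lamtor2. Each of the 13 genes has its 3 KO arrays above its 3 WT arrays, and the WT arrays of Atp6v0d2 and Rragd lie under the dotted line.

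Of 13 genes of the lysosome surface, Ragulator with Rag GTPases and folliculin, 4 rose, and Lamtor2 fell. Rragd, a Rag GTPase that pairs with RagA or RagB, read 5.94, 6.90 and 6.73 in KO against 4.64, 4.97 and 5.03 in WT, a rise of at least 1.65 (SE 0.26, limma adjusted p = 0.00258). Fnip2 and Fnip1, the partners of folliculin, rose by 1.33 (8.40, 9.08 and 8.65 against 7.39, 7.34 and 7.40) and 0.84 (9.25, 9.24 and 9.51 against 8.58, 8.45 and 8.45). All 3 are firm. Rragc rose by 0.47 but held the call only without WT1. The genes of the factors themselves did not rise: Tfeb, Tfe3 and Mitf differed by -0.08, -0.23 and -0.20, none past the threshold, and Tfec, the myeloid member, fell by 0.69, with an adjusted p over 0.05 without WT2. Of 30 genes of mTORC1 and nutrient sensing, 2 rose and 4 fell. Sesn1, of the sestrin family of amino acid and stress sensors (9.19, 9.31 and 9.45 against 9.88, 9.99 and 10.05), and Castor2, of the family of arginine sensors (5.91, 6.18 and 5.80 against 6.72, 7.01 and 7.12), fell by 0.66 and 0.99 and are firm. Sesn3 fell by 1.01 and Sesn2 by 0.52, and both lost the call in each of the 6 fits. Lars, the leucyl-tRNA synthetase, and the mTOR inhibitor Deptor rose by 0.47 and 0.51, neither firm, and the count of rising genes was 0 without WT1 or WT2 and 1 without KO1 or KO2.

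Of 43 autophagy genes measured 2 rose, Tecpr1 by 0.48 and Atg13 by 0.45, with a list median of 0.02, and the count was 0 without KO2, KO3, WT1 or WT2 and 1 without KO1 or WT3. Of 42 genes of late endosome tethering, retromer and ESCRT, 4 rose (3 firm). They were Rab7b, a late endosome Rab of myeloid cells (6.11, 6.68 and 6.13 against 4.29, 4.43 and 4.70, at least 1.84), the granule GTPases Rab44 (9.46, 9.15 and 9.34 against 8.13, 7.82 and 7.43) and Rab27a (0.53), and, not firm, the HOPS subunit Vps39 (0.48).

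Of 21 ERK feedback genes 3 rose. Dusp4, a nuclear phosphatase of ERK, read 7.82, 7.58 and 7.89 against 6.52, 6.56 and 6.42, a rise of 1.27 (SE 0.14, limma adjusted p = 0.000161), and is firm. Dusp6 and Spred2 rose by 0.53 each and lost the call in each of the 6 fits, so that Dusp4 was the only call in any of them. Of 27 immediate early genes Fos and Myc rose. Fos read 7.80, 8.33 and 10.00 against 7.09, 6.99 and 7.16, with KO3 far above the other KO arrays. Without KO3, WT2 or WT3 the count of immediate early genes was 0, and without KO2 or WT1 it was 1. Among 23 genes from receptors to ERK and PI3K, 0 passed in limma's fit (3 at an unadjusted p under 0.05), and 0 passed in each fit without an LSK array.

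Some receptor and enzyme genes of granulocytes, monocytes and mast cells rose in the KO LSK fraction. Of 14 Fc receptor genes 6 rose and 0 fell (5 firm), with a median of 0.72. Fcgr3, the low-affinity IgG receptor, read 8.49, 8.50 and 7.80 in KO against 6.45, 5.66 and 5.61 in WT, a rise of 2.36 (SE 0.23, limma adjusted p = 7.03e-05). The LSK gate does not select on it, while the GMP gate uses FcγR. The shared signalling chains Fcer1g (10.84, 11.25 and 10.86 against 9.45, 9.19 and 8.97) and Tyrobp (11.34, 11.76 and 11.33 against 10.42, 10.12 and 10.01) rose by 1.78 and 1.29. The inhibitory receptor Fcgr2b rose by 1.42. Csf2rb, the beta chain shared by the receptors of GM-CSF, interleukin-3 and interleukin-5, read 9.62, 9.40 and 9.48 against 7.70, 7.72 and 7.88, and its near-identical neighbour Csf2rb2 rose by 1.43, so probes of the pair may share signal. Il10rb rose by 0.79. Among 29 colony-stimulating factor and interleukin genes 5 rose and 2 fell, the falls being Il18r1 (6.09, 6.02 and 6.43 against 7.0, 7.19 and 7.48) and Il21r (-0.64). Csf1 and Il7r rose without being firm, and without KO2 the count of rising genes was 3.

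Of 29 myeloid transcription factors Cebpa and Maf rose and Tfec fell. Cebpa, the master factor of granulocyte and monocyte commitment, read 9.23, 9.04 and 9.17 against 7.93, 7.78 and 8.06, a 2.34-fold rise (SE 0.15 on the log2 scale, limma adjusted p = 0.0004). Maf, a factor of macrophages, rose by 1.19. Spi1 (0.10), Gata2 (0.22), Gata1 (-0.12) and Gfi1 (0.49, limma adjusted p = 0.0656) did not pass. Of 31 primary granule and GMP genes 11 rose and 0 fell (10 firm). Ctsg, the granule protease cathepsin G, read 12.01, 11.29 and 11.52 against 10.48, 9.72 and 9.19. F13a1, a transglutaminase of monocyte progenitors, read 9.21, 8.47 and 8.59 against 6.87, 5.87 and 4.58. Ap3s1, an adaptor subunit of granule sorting, rose by 1.61, and its other 2 probe sets differed by 1.84 and 1.33. Among 31 secondary granule and maturation genes 6 rose, led by Hdc, the histidine decarboxylase, with 9.31, 7.96 and 8.37 against 7.38, 6.63 and 6.30. Ms4a3 (10.17, 8.01 and 8.72 against 8.16, 6.63 and 6.44) overlaps between groups and lost the call without KO1, KO3, WT2 or WT3.

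Among 31 genes of mast cells, basophils or eosinophils there were 7 rises (6 firm) and 0 falls. Cpa3, the mast cell carboxypeptidase, read 11.18, 10.20 and 10.37 against 8.17, 7.87 and 7.68, a rise of 2.68 (SE 0.30, limma adjusted p = 0.000266). Hpgds, the hematopoietic prostaglandin D synthase, read 8.66, 9.59 and 9.45 against 5.52, 5.83 and 5.72, a rise of at least 3.54. Ms4a2, the beta chain of the IgE receptor, read 8.17, 6.87 and 7.07 against 5.12, 5.33 and 4.69. Gzmb, made by mast cells and cytotoxic lymphocytes, read 9.21, 7.95 and 7.48 against 5.29, 5.06 and 5.61. Mcpt8, a basophil protease, rose by 1.60 and lost the call without KO1, WT2 or WT3. The mast cell tryptase gene Tpsb2 stayed at or below 5.77 in all 6 arrays.

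Some macrophage genes rose as well, with another order of arrays. Of 31 macrophage genes 9 rose and 0 fell (8 firm), with a median of 0.58. Lgals3, galectin 3, read 8.70, 10.65 and 9.37 in KO against 7.31, 6.89 and 6.88 in WT, a rise of 2.54 (SE 0.36, limma adjusted p = 0.00116). C1qb and C1qc, chains of the complement starter C1q, read 7.30, 9.16 and 7.73 against 5.78, 6.00 and 5.80, and 8.12, 9.86 and 8.27 against 6.67, 6.95 and 6.02. Ms4a7 rose by at least 2.38 and Apoe, the lipid carrier, by 1.67 (11.76, 12.42 and 11.63 against 10.55, 10.51 and 9.74). Mertk, a receptor for dying cells, read 5.52, 6.91 and 6.00 against 4.72, 4.90 and 4.82, and lost the call without KO2, KO3 or any WT array. Of 28 monocyte genes 7 rose, among them Mpeg1 (8.71, 9.91 and 9.12 against 7.12, 6.72 and 6.23) and the chemokine receptor Ccr2 (7.75, 6.96 and 7.34 against 6.20, 5.59 and 4.88). Of 22 complement genes 5 rose, led by the C3a receptor C3ar1 (7.14, 8.82 and 7.89 against 4.11, 5.16 and 4.54, at least 3.34), and 3 of them remained without KO2 or WT3. Among 26 genes of TAM receptors and dead cell clearance 4 rose and 1 fell. Without KO2, KO3 or any WT array the rising count was 1, that of the integrin gene Itgb3 (7.67, 7.57 and 7.74 against 6.86, 7.08 and 6.59).

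The KO arrays were thus ordered differently for different genes. Among the 496 higher genes KO1 was the most extreme KO array in 127, KO2 in 197 and KO3 in 172. The mast cell and granule genes Cpa3, Ms4a2, Ms4a3, Hdc, Ctsg, Mcpt8 and Gzmb were highest in KO1, and of these Cpa3, Ms4a3, Hdc, Ctsg and Mcpt8 were also highest in WT1 among the WT arrays. The macrophage and lysosomal genes Gpnmb, Anpep, Lgals3, C1qb, C1qc, Cd300lf, Mpeg1 and Ctsb were highest in KO2 and, among KO arrays, lowest in KO1. Other genes ran against this split. Hpgds was highest in KO2, and Cst7, Lamp2 and Cd63 were highest in KO1. Rises that peaked in KO1, KO2 and KO3 numbered 7, 3 and 1 among primary granule genes and 6, 1 and 0 in the mast cell list. They numbered 4, 10 and 1 in the list of lysosomal hydrolases and activators and 0, 9 and 0 among macrophage genes. This is a description of single arrays, and the share of other cell types in them was not tested.

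**Figure D2:**
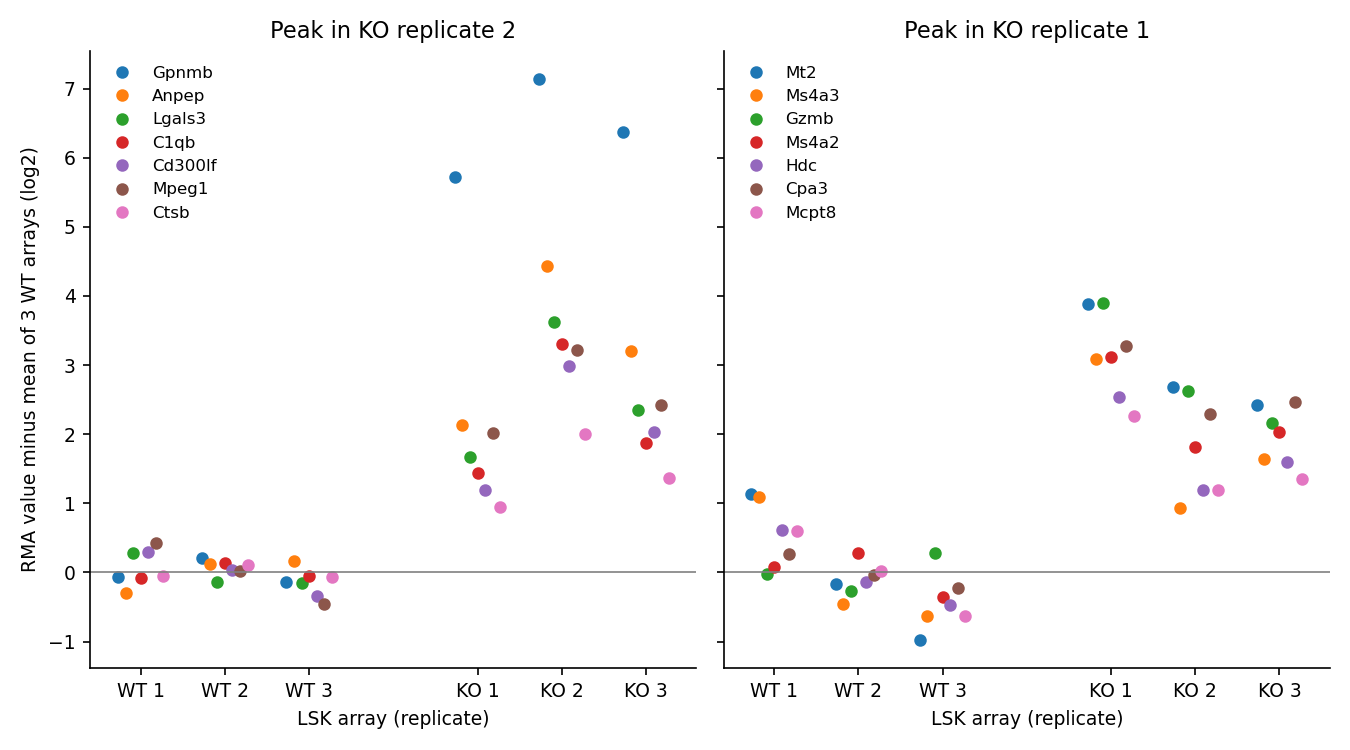
RMA value minus the mean of the 3 WT arrays (log2) in each LSK array for 7 macrophage and lysosomal genes that peaked in KO2 (left) and 7 metallothionein, mast cell and granule genes that peaked in KO1 (right), chosen after their values were seen. In the left panel most WT arrays stay close to 0, though WT1 lies above 0 for Mpeg1 and Lgals3, and WT3 below 0 for Mpeg1. In the right panel WT1 lies above 0 for Mt2, Ms4a3, Hdc, Cpa3, Mcpt8 and, by little, Ms4a2.

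Of 31 Cd200 receptors and other paired receptors 11 rose and 1 fell (8 of the rises firm). Cd200r4, an activating member, read 7.07, 7.46 and 6.90 against 3.73, 3.39 and 3.86, at least 3.48. The near-identical Lilr4b and Lilrb4a, leukocyte immunoglobulin-like receptors, rose by 2.53 and at least 2.46 and may share signal. Cd300lf and Cd300a, which bind lipids of dying cells, rose by at least 2.07 and by 0.91, and Sirpa, the receptor of the "do not eat me" ligand CD47, by 0.88 (9.28, 9.97 and 9.50 against 8.71, 8.70 and 8.70). The fall was that of Siglecg (-0.59), which lost the call without KO2, WT2 or WT3. Of 31 pattern receptors 8 rose (5 firm). Clec7a, the beta-glucan receptor dectin 1, rose by at least 1.68, Clec4e by 0.80 and Cd180 by 0.75 (10.52, 10.62 and 10.71 against 9.90, 10.04 and 9.67). Tlr13 and Tlr9, receptors of nucleic acids in endosomes, rose by at least 1.91 and by 0.81, and their chaperone Unc93b1 by 0.61, none of them firm. The count of pattern receptors was 5 without WT2.

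Of 24 chemokine genes 3 rose, all firm, and 2 fell, Pf4 and Ppbp, which are described with the megakaryocyte genes. Ccl3, an inflammatory chemokine that attracts myeloid cells, read 10.23, 10.58 and 11.50 against 8.01, 8.23 and 7.78, a 6.79-fold rise (SE 0.29 on the log2 scale, limma adjusted p = 0.000119). Ccl2 rose by at least 1.67 (7.51, 7.26 and 7.34 against 5.85, 5.54 and 5.72) and Ccl9 by 0.99. Of 23 chemokine receptors Ccr9 and Ccr2 rose. Ccr9, which guides progenitors to the thymus and gut, read 8.08, 9.50 and 9.63 against 5.07, 4.95 and 5.55, at least 3.88, and Cxcr1 fell by 0.59 without being firm. Among 28 NF-kB genes 2 rose and 1 fell. The subunit gene Rel rose by 0.98 (9.12, 9.59 and 9.58 against 8.40, 8.43 and 8.51). Tnip3, an A20-binding inhibitor of NF-kB, read 4.91, 4.55 and 4.67 against 6.85, 6.48 and 6.81 and fell by 2.0 or more. Tnfrsf1b rose by 0.46 and lost the call without KO2, KO3 or WT3. Socs3, the feedback inhibitor of gp130 signalling, rose by 1.14 (7.68, 8.48 and 8.28 against 7.07, 6.98 and 6.98).

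Of 25 genes of zinc handling 3 rose, Mt1 and Mt2, whose promoters are shown above, among them. Mt1 read 11.70, 11.19 and 11.20 in KO against 8.67, 7.77 and 6.96 in WT, an 11.8-fold rise (SE 0.31 on the log2 scale, limma adjusted p = 4.17e-05). Mt2 read 11.57, 10.37 and 10.11 against 8.83, 7.53 and 6.72, a 7.97-fold rise. In both genes the WT arrays were spread widely, with WT1 highest. The zinc importer gene Slc39a6 rose by 0.47 without being firm. Of 25 iron genes 3 rose, with Hfe (0.44) not firm. The transferrin receptor gene Tfrc read 9.30, 9.15 and 9.47 against 8.63, 8.70 and 8.64, and Ncoa4, the receptor that delivers ferritin to lysosomes, read 10.83, 10.88 and 10.85 against 10.21, 10.15 and 10.38. Of 30 NRF2 and redox genes Gstm1 rose by 0.61 (10.86, 10.71 and 10.71 against 10.22, 10.17 and 10.07) and is the firm rise of that list. Nfe2l2, the NRF2 gene, rose by 0.61 and lost the call in each of the 6 fits. Slc7a11, the cystine transporter gene, was called higher with both means at or below 5.77, and Aldh1a1 fell. The rising count of the redox list was 1 without KO2 or WT3, and the falling count was 2 without WT3.

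Of 26 glucose uptake and glycolysis genes 4 rose and 1 fell. The lactate and pyruvate carrier gene Slc16a1 (8.35, 8.05 and 8.32 against 7.52, 7.76 and 7.57) and the lysosomal hexose transporter gene Slc2a6 (0.55) are firm rises. Aldoc, the brain-type aldolase, fell by 0.91 (6.66, 6.43 and 6.77 against 7.47, 7.37 and 7.76). Pfkp and Hk2 rose by 0.58 and 0.49 and are not firm, and the rising count was 2 without KO1, KO3 or any WT array. Of 23 lipid efflux and storage genes 3 rose, Apoe, Fabp4 and Fabp5, and the transporter gene Abcg3 fell by 1.45 or more (4.60, 5.23 and 5.13 against 6.61, 6.15 and 6.56). Fabp4 read 6.25, 7.77 and 6.97 against 5.70, 5.58 and 5.50. Without KO2, KO3 or any WT array Apoe was the only rise of this list. Of 32 sterol and fatty acid synthesis genes 0 rose and 2 fell, Srebf2 by 0.47 and Stard4 by 0.66. Neither was firm, and the count was 0 without KO1, WT2 or WT3 and 1 without KO2 or KO3.

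**Figure D3:**
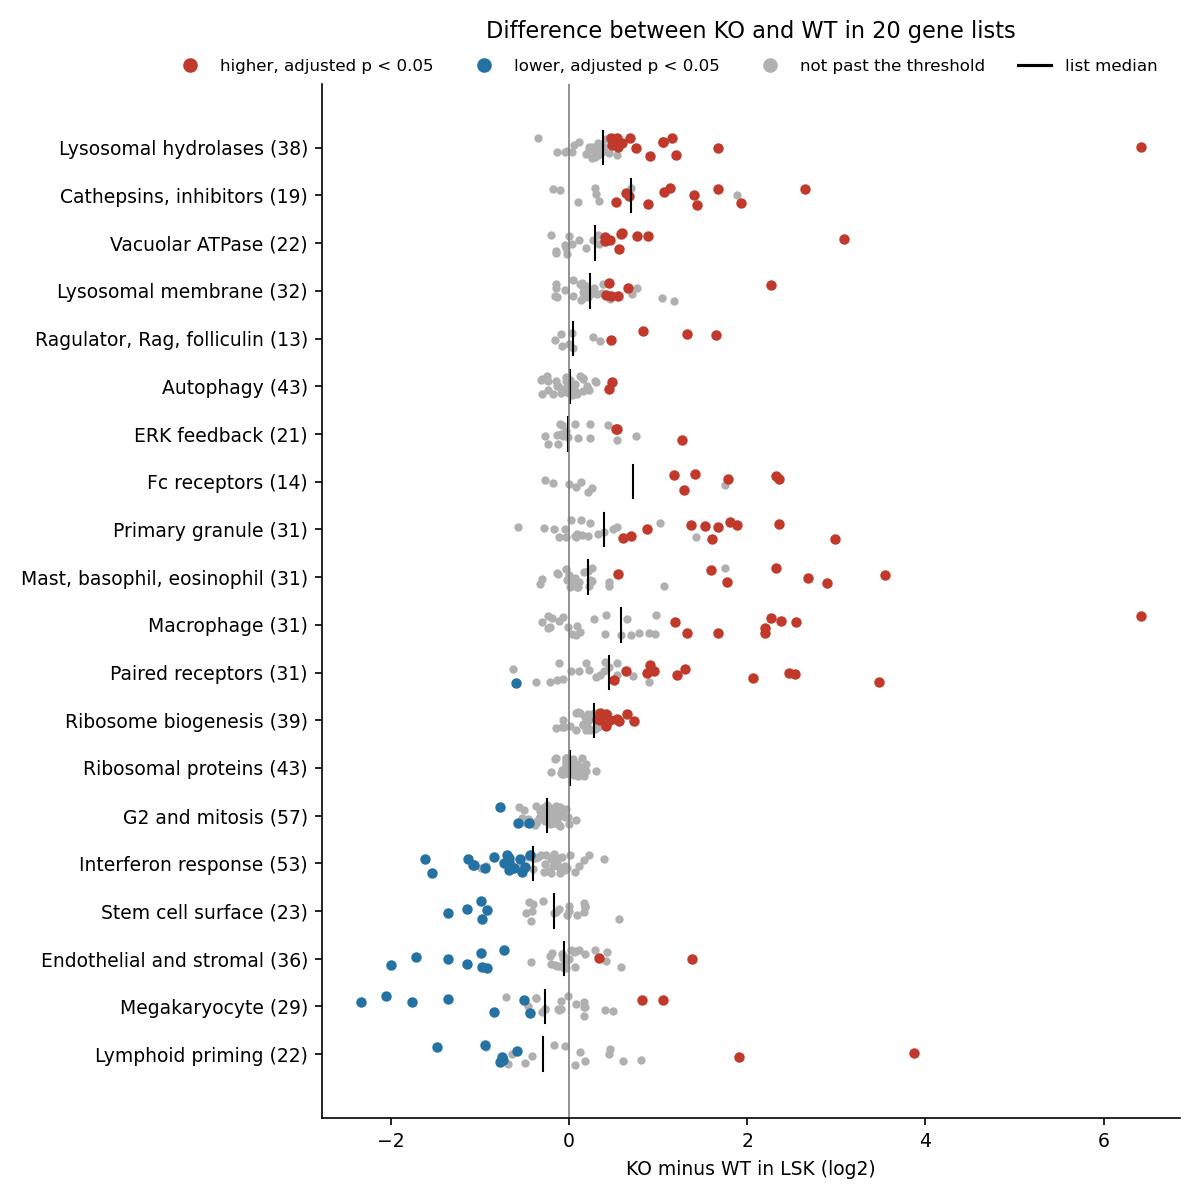
Difference between KO and WT LSK (log2) for each measured member of 20 gene lists, with the number measured in brackets, members past the threshold in colour and a black bar at the list median. Lamtor2, a member of the Ragulator list, is left out of the dots. Members past the threshold lie to the right of 0 in the lysosomal lists and to the left in the interferon and stem cell surface lists, while the megakaryocyte list has 7 to the left and 2 to the right.

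Of 23 stem cell and multipotent progenitor surface genes 0 rose and 5 fell (4 firm), with a median of -0.17. Tek, the angiopoietin receptor of quiescent stem cells and endothelium, read 5.25, 5.14 and 5.29 in KO against 6.56, 6.69 and 6.49 in WT, so it fell by 1.35 or more (SE 0.11, limma adjusted p = 2.61e-05). Its relative Tie1 fell by 0.99 (7.37, 7.63 and 7.73 against 8.47, 8.63 and 8.60). Robo4, a guidance receptor that takes part in anchoring stem cells, fell by 1.14 (6.00, 6.44 and 6.29 against 7.28, 7.39 and 7.48), and the adhesion molecule Esam by 0.92 (6.44, 6.82 and 6.97 against 7.67, 7.62 and 7.71). Eng read 8.66, 8.64 and 8.64 against 9.58, 9.63 and 9.64, but the fit that pools the spread with GMP gave an adjusted p over 0.05 without KO2, KO3 or any WT array. The list of 36 endothelial and stromal genes holds these 5 too, and 8 of its members fell (6 firm) while 2 rose without being firm. Its other falls were Emcn, a sialomucin of stem cells and veins (4.82, 5.07 and 5.68 against 7.12, 6.56 and 7.03), which fell by 1.72 or more, the proteoglycan gene Bgn (5.31, 5.51 and 5.49 against 7.34, 7.72 and 7.22), which fell by 1.99 or more, and Egfl7 (-0.73). Cdh5, the endothelial cadherin, stayed at or below 5.77 in every LSK array. The rises of Fstl1 and Pdgfra were absent without KO2, KO3 or any WT array, and without KO1 the count was 1.

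**Figure D4:**
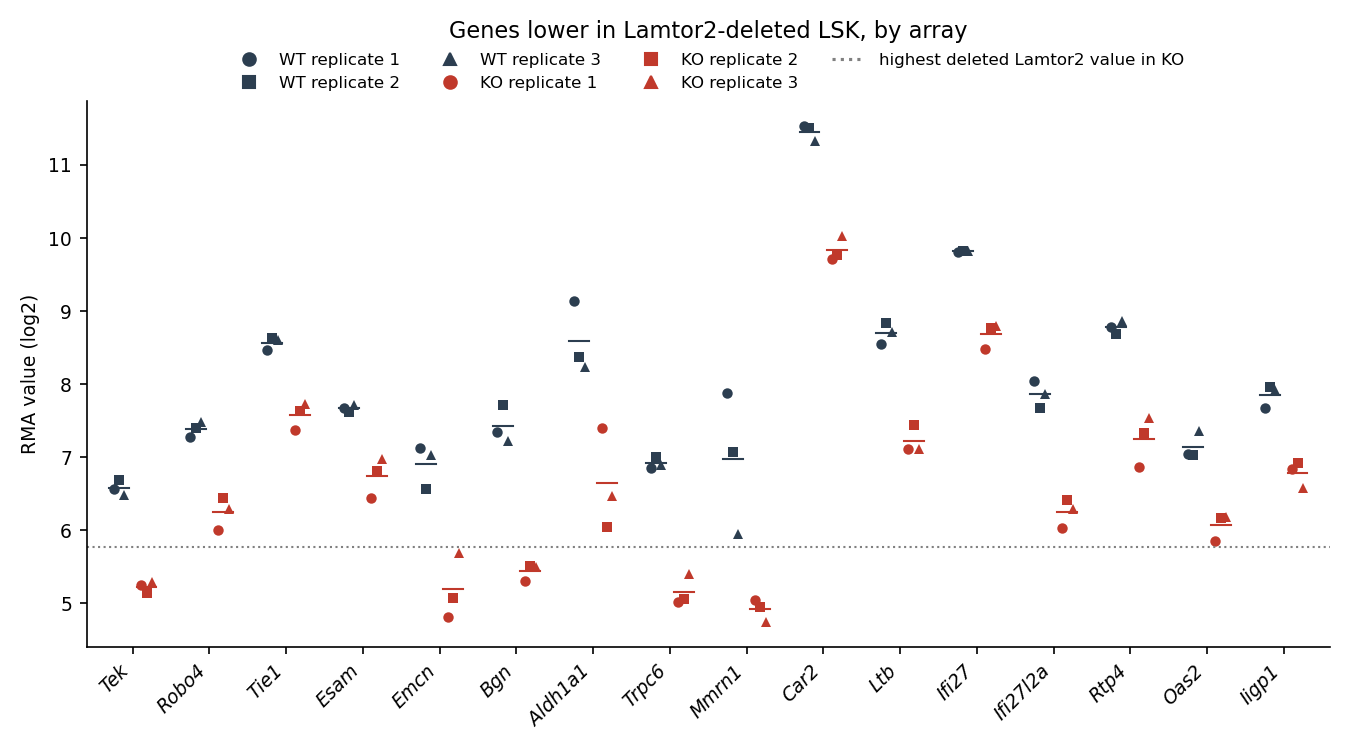
RMA values (log2) of 16 genes that fell, in the 3 WT and 3 KO LSK arrays, with bars at the group means and a dotted line at 5.77, the highest value of deleted Lamtor2. In each gene the KO arrays lie below the WT arrays, and those of Tek, Emcn, Bgn, Trpc6 and Mmrn1 lie under the dotted line.

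Of 42 stem cell transcription factors and regulators 1 rose and 3 fell, 0 of them firm, with a median of -0.16. Hlf read 10.19, 10.34 and 10.43 against 10.71, 10.86 and 11.05, Mllt3 fell by 0.73 and Gfi1b by 0.84, and Id1 rose by 0.56. The falling count was 1 without KO1, WT1 or WT3 and 0 without KO2, KO3 or WT2, and the rising count was 0 without KO2, KO3, WT1 or WT3. Of 32 Notch and retinoid genes 3 fell, all firm, and Rara rose by 0.47, a call present without KO1 and absent in the other 5 fits. Without KO1 the rising count was 2. Aldh1a1, a retinaldehyde dehydrogenase, read 7.40, 6.05 and 6.47 against 9.14, 8.37 and 8.24, a 3.85-fold fall (limma adjusted p = 0.00171). Notch1 fell by 0.94 (7.26, 7.70 and 7.79 against 8.46, 8.57 and 8.56) and its target Nrarp by 0.96 (5.92, 5.73 and 5.85 against 6.86, 6.95 and 6.58). Of 20 imprinted genes Ndn, which restrains cell division, fell by 1.26 or more (5.60, 5.66 and 6.02 against 6.78, 7.18 and 7.08). Grb10 fell by 0.70 and Impact rose by 0.63, neither firm. The falling count of imprinted genes was 1 without any LSK array but KO1, and the rising count was 2 without KO2 and 0 without KO3, WT1 or WT2. Cdkn1c, an imprinted inhibitor of the cell cycle, differed by 0.08 and Cdkn1b by -0.54 (10.56, 10.25 and 10.30 against 10.96, 10.87 and 10.90), neither past the threshold. The other probe set of Cdkn1b differed by -0.07.

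Of 29 megakaryocyte and platelet genes 2 rose and 7 fell (3 of the falls firm), with a median of -0.26. Trpc6, a cation channel, read 5.01, 5.06 and 5.40 against 6.85, 7.0 and 6.89 and fell by 1.76 or more. Mmrn1, a platelet granule protein, read 5.05, 4.95 and 4.74 against 7.88, 7.07 and 5.95, with the WT arrays far apart. The chemokine genes Pf4 (7.02, 6.16 and 6.87 against 9.41, 9.37 and 8.24) and Ppbp (both means at or below 5.77) fell, and Pf4 lost the call in each of the 6 fits. Without KO3 or WT2 the falling count was 3, and without WT1 it was 4. The rises were those of Itgb3 and of Plek, the PKC substrate pleckstrin (11.03, 11.07 and 11.17 against 10.01, 10.17 and 9.90). Of 30 erythroid genes Tfrc rose and 4 fell. Car2, carbonic anhydrase 2, read 9.71, 9.77 and 10.03 against 11.54, 11.51 and 11.33, a 3.07-fold fall (limma adjusted p = 6.52e-05), and Hemgn fell by 0.82. Blvrb and Nfe2 fell by 0.59 and 0.44 and are not firm, and without KO3 the count was 2.

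Lymphoid priming genes were split. Of 22 measured, 2 rose and 6 fell. Ltb, lymphotoxin beta, read 7.11, 7.44 and 7.12 against 8.55, 8.84 and 8.71, a 2.79-fold fall (limma adjusted p = 0.00783), and Cnn3 fell by 0.78. Rag1 and Rag2 were called lower with both means at or below 5.77, and Mn1 fell by 0.74, none of the 3 firm. The rises were Ccr9 and Il7r, and Il7r read 6.39, 8.22 and 7.44 against 6.24, 5.37 and 4.73, without being firm. Flt3 differed by 0.19 (10.41, 10.82 and 10.74 against 10.45, 10.46 and 10.49). The falling count was 3 without KO1 or WT1, and the rising count 1 without KO2, KO3, WT2 or WT3. Of 27 MHC class II and dendritic cell genes 2 rose, Sirpa and, not firm, Cd83 (at least 0.76), and 3 fell, the class II genes H2-Aa (8.72, 8.74 and 8.35 against 9.47, 9.73 and 9.48), H2-Ab1 (8.50, 8.60 and 8.37 against 9.57, 9.74 and 9.25) and Cd74 (7.10, 7.71 and 7.59 against 8.36, 8.72 and 8.33). They fell by 0.96, 1.03 and 1.00. None was firm, and the falling count was 0 without KO3, WT1 or WT2. The rising count was 4 without KO1 and 1 without any other LSK array.

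Some interferon-response genes fell in KO. Both genotypes had received pIpC. Of 53 measured 18 fell and 0 rose (12 firm), with a median of -0.40, and in 32 of the 53 all KO arrays lay below all WT arrays, against 13.2% of all genes. Ifi27l2a read 6.03, 6.42 and 6.29 in KO against 8.04, 7.68 and 7.86 in WT, a 3.06-fold fall (SE 0.16 on the log2 scale, limma adjusted p = 9.13e-05). It is 1 of a family of close copies, so its probes may share signal. Rtp4, a transporter of receptors to the surface, read 6.87, 7.33 and 7.53 against 8.79, 8.68 and 8.86. Ifi27 read 8.48, 8.77 and 8.80 against 9.81, 9.82 and 9.82, Oas2, a sensor of double-stranded RNA, 5.85, 6.16 and 6.19 against 7.04, 7.03 and 7.35, and the GTPase Iigp1 6.84, 6.92 and 6.58 against 7.67, 7.96 and 7.91. The RNA sensors Ddx58 and Ifih1 fell by 0.67 and 0.70 and the DNA sensor Zbp1 by 0.72. Oas3 and Ifit1, whose promoters are shown above, fell by 0.61 and fell by 0.94 or more and lost the call without WT3, and Ifit1 also without KO1. The mean over the list was 7.22, 7.39 and 7.40 in KO and 7.74, 7.76 and 7.78 in WT. Among 21 receptor and JAK-STAT genes of this pathway Socs3 and Ifngr1 (0.57) rose and Stat2 fell by 0.53, of which Socs3 is firm. The rising count was 1 without KO2 or any WT array, and the falling count was 0 without any LSK array but KO2. Of the 8 GIMAP GTPases 3 fell. Gimap7 read 4.81, 5.66 and 5.45 against 6.87, 6.98 and 7.50 and fell by 1.81 or more, while Gimap1 (-0.76) and Gimap6 (-0.84) are not firm. The GIMAP count was 1 without KO1, KO3 or WT2.

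Of 39 ribosome biogenesis and Myc response genes measured 11 rose and 0 fell (3 firm), with a median of 0.28. In 31 of the 39 all KO arrays lay above all WT arrays, against 12.4% of all genes. The firm rises were Utp14a (8.85, 9.02 and 9.05 against 8.29, 8.07 and 8.36), the nucleostemin gene Gnl3 (10.38, 10.47 and 10.43 against 9.94, 9.71 and 9.96) and Tfrc. Tfrc, the transferrin receptor gene, is not a ribosome biogenesis gene, and its rise is also counted among the iron and erythroid genes. Myc read 12.29, 12.25 and 12.32 against 11.92, 11.77 and 11.85, a rise of 0.44 that lost the call without KO1, KO3, WT2 or WT3. The rising count of this list was 5 without KO1 or WT1, 4 without KO2, 3 without KO3 or WT2 and 6 without WT3. Of 43 ribosomal protein genes 0 passed in limma's fit (4 at an unadjusted p under 0.05), and the median was 0.01.

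Of 57 genes of G2 and mitosis 55 had a negative difference, with a median of -0.24, and 3 fell, Prc1 (8.62, 8.21 and 8.48 against 9.37, 9.23 and 9.03), Ckap2 and Cdc25b. The count was 0 without KO2, KO3, WT1 or WT2 and with a required difference of 1 on the log2 scale. It was 5 with array weights, 6 without GMP KO replicate 1, 6 with the 6 LSK arrays alone and 11 when these 6 had the replicate number as a block. KO2 had the lowest mean of this list, at 8.25, against 8.62 and 8.54 in KO1 and KO3 and 8.89, 8.69 and 8.62 in WT. Of 45 replication genes 1 fell, Rfc3 (-0.44), and 0 without KO2, KO3, WT1 or WT2. Among 16 G1 cyclins, kinases and E2F genes E2f2 fell by 0.62 and is firm, Ccnd3 fell by 0.50 without being firm, Myc rose, again without being firm, and Ccnd1 (0.47) and Ccnd2 (-0.07) did not pass. Of 29 recombination and Fanconi repair genes Fanca fell by 0.53 and lost the call without WT2. Of 23 p53 targets Perp rose by 1.01 (7.23, 6.71 and 7.05 against 5.96, 6.15 and 5.85) and Sesn1 and Sesn2 fell. Of 17 CDK inhibitor and antiproliferative genes Ndn and Cdkn2c (-0.59) fell, and Cdkn2c lost the call without KO2, KO3 or WT1.

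Further groups held few calls. No gene passed in limma's fit among 28 unfolded protein response genes (7 at an unadjusted p under 0.05), 17 BCL2 family genes (3), 9 HIN-200 genes (3) and 14 Ly6 genes (3). Without WT2 1 HIN-200 gene was called, and without WT3 1 Ly6 gene. Of 37 ATF4 target and amino acid genes Slc7a11 was called higher and Sesn2 and the stress gene Nupr1 lower, and Nupr1 (6.58, 6.52 and 6.49 against 7.08, 7.19 and 7.19) is firm. Of 21 heat shock genes Hspa4l fell by 0.54, and of 49 respiratory chain genes Ndufa10 rose by 0.37, neither firm. Of 42 TGF-beta, BMP and Wnt genes 5 rose and 2 fell, and the receptor gene Tgfbr1 (8.49, 8.90 and 8.78 against 8.15, 7.99 and 8.18) is the firm rise. The rising count of that list was 1 without WT1, 2 without KO3 or WT3 and 3 without KO1 or KO2, and the falling count was 1 without KO1 and 0 without any other LSK array. Of 34 integrin and adhesion genes Itgb3 and Itgb2 rose and Itga2, Jam2 and Esam fell, and the rising count was 1 without KO2, WT2 or WT3. Of 26 prostaglandin and leukotriene genes Hpgds, which is firm, and Ptgds rose and Ggt5 fell. The rising count was 1 without any LSK array but KO1, and the falling count was 0 without KO1, WT1 or WT2. Of 30 DNA methylation and Polycomb genes the deacetylase gene Hdac9 (5.90, 6.27 and 6.20 against 6.71, 6.84 and 6.92) fell and is firm, and Tet2 rose by 0.57 without being firm. Of 21 lymphoid transcription factors Notch1 fell. Of 21 B cell genes Rag1, Rag2 and Vpreb3 fell, none firm, and of 25 T and NK cell genes Gzmb and Cd28 rose, Gzmb being firm.

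The KO effect differed between LSK and GMP in 1591 genes (7.98% of those tested) by the interaction term of the limma fit, with the LSK effect above that of GMP in 1064. Leaving out KO3 or WT2 gave 915 genes, leaving out WT1 gave 1056, and leaving out the second or the third GMP WT array gave 800 or 1012. Of the 496 genes higher in LSK, 228 were also higher in GMP (46.0% of these and 19.8% of the 1153 higher in GMP, which are 5.78% of those tested), 51 were lower there and 217 did not pass there. For 216 (43.5%) the interaction passed, and in 173 of them the LSK effect was the higher. Of the 390 genes lower in LSK, 108 were also lower in GMP (27.7% of these and 5.2% of the 2059 lower in GMP, 10.3% of those tested). The interaction passed for 137 of the 390 (35.1%), with the LSK effect the lower in 135. Both the 496 and the 390 genes were picked by the LSK contrast, which is part of the interaction. That choice favours a passing interaction and largely fixes its direction. The 43.5% and 35.1% are therefore not to be set against the 7.98% of all genes.

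By group, of the 38 genes on the list of hydrolases and activators 15 rose in LSK and 19 in GMP. Of the 19 cathepsins and inhibitors 11 and 10 rose, and of the 22 proton pump genes 9 and 12. The interaction was past the threshold for 5, 4 and 0 genes of these lists. Of 53 interferon-response genes 18 fell in LSK and 10 in GMP, where 5 rose, and the interaction passed for 17. Of 39 ribosome biogenesis and Myc response genes 11 rose in LSK and 0 in GMP, where 16 fell, and it passed for 24. Of 57 G2 and mitosis genes 3 fell in LSK and 56 in GMP, and it passed for 28. Of 31 primary granule genes 11 rose in LSK against 3 in GMP, where 9 fell, and it passed for 14. Cebpa rose in LSK by 1.23 and differed by 0.11 in GMP (adjusted p of the difference in limma's fit 0.00738). For Tek, Robo4 and Emcn the adjusted p of the difference was 0.00375, 0.00406 and 0.00383, but both of their GMP means lie at or below 5.77, so no size of an effect in GMP is read.

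**Figure D5:**
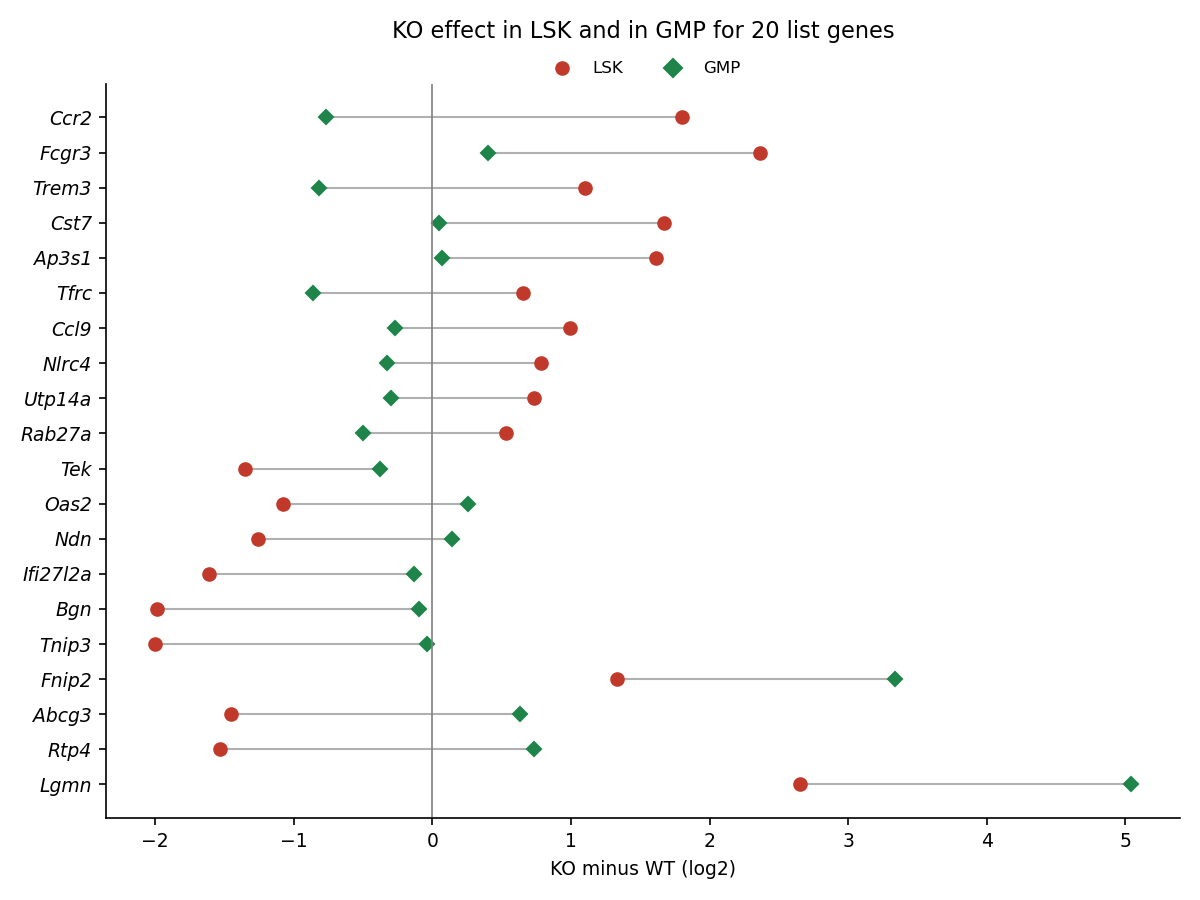
KO minus WT (log2) in LSK (circles) and in GMP (diamonds) for the 20 list genes with the smallest interaction p, 10 in each direction, among those past the threshold in LSK in every fit without 1 LSK array. Tfrc was 0.65 higher in KO LSK and differed by -0.86 in KO GMP, a difference of 1.51 between the effects, while Lgmn rose by 2.65 in LSK and by at least 5.04 in GMP.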

How the data were processed

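RNA of sorted LSK and GMP cells (3 arrays per genotype and population) was amplified and hybridised to Affymetrix arrays. The authors deposited 1 value per probe set and array on the log2 scale, made by RMA per the submitters' processing notes; the sources used here give no software version and no genome build. Of 34760 probe sets, 21640 carried exactly 1 gene symbol, 1321 carried several and 11799 were not listed in the annotation. The 954 genes with several probe sets were represented by the set of highest mean, which left 19937 genes. The test was limma 3.58.1 in R 4.3.3 on all 12 arrays in 4 groups, which share 1 estimate of the spread (8 residual and 5.16 prior degrees of freedom), with Benjamini-Hochberg adjustment over all genes and a threshold of 0.05. The difference between LSK and GMP effects was the interaction contrast. Tested on simulated data for LSK, the fit recovered 45 of 50 genes lowered by 1 on the log2 scale and 49 of 50 raised by 1. It called 13 unchanged genes in a set of 19937 genes, changed ones included. The simulated noise was independent between genes and arrays, with 1 spread per gene. It therefore does not cover noise shared between genes, an outlying array or changes smaller than 1. Genes were named from 67 lists by the threshold, together with the largest differences and a few reference genes. The members and lists were chosen with earlier results of these data known. The number of arrays limits the precision.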

Additional observations from a re-analysis of the deposited data

Results flagged for a closer look

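The KO effect differed between LSK and GMP cells in 1591 genes by the interaction term of limma's fit. The 20 genes given here are members of the gene lists that passed in LSK in every fit without 1 LSK array, 10 in each direction with the smallest interaction p. Their choice used this test, so the sizes describe the most different genes. Each value below is a KO minus WT difference on the log2 scale, first in LSK, then in GMP, and then the difference between both. A difference in which 1 mean lies at or below 5.77, the highest value of deleted Lamtor2 in LSK, is treated as a bound.

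The LSK effect was the higher in 10 genes. For Tfrc it was 0.65 in LSK and -0.86 in GMP, a difference of 1.51. For Cst7 it was 1.67 and 0.05, a difference of 1.62. Rab27a gave 0.53 and -0.50, a difference of 1.03, and Ap3s1 gave 1.61 and 0.07, a difference of 1.53. Ccl9 gave 0.99 and -0.27, a difference of 1.25. Nlrc4, whose means in LSK both lay at or below the level of deleted Lamtor2, had a difference of 1.11 that carries no size. Utp14a gave 0.73 and -0.30, a difference of 1.03. Among the myeloid receptor genes Fcgr3 gave 2.36 and 0.40, a difference of 1.96. Trem3 gave at least 1.10 and -0.82, a difference of at least 1.92. Ccr2 gave at least 1.80 and -0.77, a difference of at least 2.56.

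The LSK effect was the lower in the other 10. In 5 of them, Bgn, Tnip3, Abcg3, Ndn and Tek, the KO mean in LSK and both means in GMP lay at or below 5.77, so the fall in LSK is a bound, and the fitted GMP value and the difference carry no size. Bgn fell by 1.99 or more in LSK, with a fitted difference of -1.89 from GMP. Tnip3 fell by 2.0 or more, with a fitted difference of -1.96, and Abcg3 fell by 1.45 or more, with -2.09. Ndn fell by 1.26 or more, with -1.40, and Tek fell by 1.35 or more, with -0.97. Fnip2 and Lgmn rose in both populations and more in GMP, with 1.33 and 3.34 for Fnip2, a difference of -2.01, and 2.65 and at least 5.04 for Lgmn, a difference of -2.39 or beyond. Rtp4 gave -1.53 in LSK and at least 0.73 in GMP, a difference of -2.27 or beyond. The interferon-response genes Ifi27l2a (-1.61 and -0.13) and Oas2 (-1.08 and 0.26) differed by -1.49 and -1.34. The adjusted p of these 20 interactions in limma's fit lay between 0.000182 for Bgn and 0.00387 for Fcgr3.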

How the results depend on the processing

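Lamtor2 stayed past the threshold under every alternative run, between -5.14 and -4.81 when 1 array was left out. Leaving out 1 array gave 455 to 1672 genes past the threshold in LSK, 255 to 919 higher and 200 to 753 lower, and 800 to 2006 genes with a different effect in LSK and GMP. Array weights gave 1734 genes (945 higher, 789 lower), the 6 LSK arrays alone 1390 (756 and 634), and a required difference of 1 on the log2 scale 182 (128 and 54), with 371 for the difference from GMP. Repeated quantile normalisation, median centring, leaving out the dimmest 30%, the mean over probe sets, and trend with robust fitting gave 966, 873, 935, 881 and 951 genes. For the difference from GMP, 1591 genes in the main fit, these 5 settings gave 1085, 1953, 1792, 1595 and 1704 genes, and array weights gave 2119. Median centring moved the share of higher genes from 56.0% to 62.9%. No result past the threshold in either fit reversed. Of the named genes' values under the alternatives, 4492 kept their side of the threshold, 600 lost it and 9 gained it. In 17 of those that kept it the sign turned, each in a gene past the threshold in neither fit. Of the list counts under the alternatives, 1153 stayed at a similar size and 449 moved.

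The replicate numbers were not shown to pair the samples, since deviations of same-numbered LSK arrays correlated at 0.065, 0.036 and 0.129. With the replicate number as a block, the 6 LSK arrays gave 1384 genes (759 higher, 625 lower) and the 12 arrays 852. The dimmest probe sets limit what can be read: a deleted gene still read up to 5.77.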

Other observations

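Several of the largest rises were in genes outside the 67 lists. Anpep, the aminopeptidase N gene of myeloid cells, read 8.27, 10.57 and 9.35 in KO against 5.85, 6.27 and 6.30 in WT, a rise of 3.26 (SE 0.40, limma adjusted p = 0.000452). Havcr2, which encodes the inhibitory receptor TIM-3, read 8.99, 8.45 and 8.58 against 6.04, 5.78 and 6.12. Sulf2, an extracellular sulfatase, rose by 2.51 and the guanine deaminase gene Gda by 2.47. Bhlhe40 and Bhlhe41, a pair of related transcriptional repressors, rose by 2.46 and at least 2.28. Cd33, a sialic acid receptor of myeloid cells, read 9.73, 10.41 and 10.27 against 8.25, 7.76 and 8.27. These 7 rises are firm. Those of Cdo1, Cyp11a1 and Pmp22 (at least 2.14, at least 2.09 and 1.92) lost the call without KO3, WT1 or WT3, among others.

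Falls outside the lists were smaller. Tspan6, a tetraspanin, read 6.49, 6.77 and 7.08 in KO against 8.62, 8.34 and 8.48 in WT. Cyp2r1, a vitamin D hydroxylase, fell by 1.59 or more, and Slc27a6, a fatty acid transporter, fell by 1.52 or more. Itsn1, an endocytic scaffold, read 6.14, 6.33 and 6.42 against 7.55, 7.66 and 7.58. Syne2, a nuclear envelope protein that links the nucleus to the cytoskeleton, read 6.84, 7.30 and 7.45 against 8.60, 8.44 and 8.45, and the gelatinase gene Mmp2 fell by 1.19. Hacd4, an enzyme of long fatty acid synthesis, fell by 1.19 in LSK and rose by at least 1.66 in GMP (limma adjusted p of the difference 0.000142). Ube2l6, the enzyme that conjugates ISG15, fell by 1.18, and Gucy1a1, a guanylate cyclase subunit, fell by 1.09. All of these falls are firm.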
